A study of Homo sapiens with 4 samples.

Results

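Matricellular proteins are secreted into the space around cells, where they bind cell surface receptors, growth factors and the structural matrix, and many of them alter adhesion and migration more than they bear load. A set of 10 such genes, or genes of proteins that work beside them, were examined in MDA-MB-231, an established human line of triple-negative breast cancer (TNBC) cells. They were the tenascin TNC, the thrombospondins THBS1, THBS2 and THBS3, the calcium-binding glycoprotein SPARC, the proteoglycan SPOCK1 of the SPARC family, fibronectin (FN1), periostin (POSTN), osteopontin (SPP1) and TGFBI, a relative of periostin that is induced by transforming growth factor beta. All 10 were found by symbol among the 63677 genes of the table, with 1 row each. The cells had been transfected with a control siRNA (siCt, 2 libraries) or with a pool of siRNAs against the receptor tyrosine kinase AXL (siAXL, 2 libraries), and no other treatment or allele was given in the labels for either group. The libraries are samples of 1 cell line, and the labels do not say whether they came from separate cultures, so p-values measure the spread between these libraries, which may be technical. The question of the comparison was which transcripts differ once AXL is depleted.

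The values were normalized counts, in which the authors divided the reads of a gene by the size factor of its library. Total reads ran from 39574387 to 44585773 per library. AXL, the targeted gene, had 29189 and 30617 normalized counts in siCt 1 and 2 and 8658 and 7141 in siAXL 1 and 2. It was lower in both siAXL libraries, at 26.4% of its siCt mean (log2 fold change -1.93 with an SE of 0.0918, adjusted p = 0.000585 by limma). VIM, the mesenchymal intermediate filament, stood at 86751 or more normalized counts in every library, while the hormone receptors ESR1 and PGR stood at 3.25 or fewer. KRT19, a keratin listed here among the markers that should be low, had 30958 to 32106. In the same list, ERBB2 had 2949 to 3680 and was called higher, EPCAM had 565 to 771 and GATA3 248 to 303. CDH1 had 22.6 to 94.3 and was called lower, and FOXA1 had at most 6.71. Of 10 fibroblast markers, 5 passed the filter on low counts, with 2 called higher and 1 lower. Their summed level was 2164 and 2268 normalized counts in siCt and 2274 and 2157 in siAXL. COL1A1 (1291 to 1599, called lower), COL1A2 (225 to 352, called higher) and PDGFRB (294 to 456, called higher) held most of that sum, while PDGFRA and THY1 had at most 0.983 in any library. Of 5 endothelial and 6 blood cell markers, 2 and 3 were tested, and 1 blood cell gene, CSF1R, was called, as lower. Of the endothelial markers, KDR held most of the sum at 140 to 179, TEK had 7.58 to 21.4, and PECAM1 was at 0 throughout. Summed endothelial markers ran from 155 to 170 in siCt and from 173 to 207 in siAXL, and blood cell markers from 408 to 484 and from 322 to 382. The part of these markers in the results was not tested, and in such bulk samples fewer cells with a transcript cannot be told apart from less of it per cell.

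FN1 and THBS1 were by far the most abundant of the 10 transcripts, and POSTN was not detected. To set genes beside each other, normalized counts were divided by exon length in kilobases, as annotated by GENCODE release 29, which counts all exons of a gene and so understates the level of long, variably spliced genes such as FN1. In siCt the level per kilobase was 4244 ± 51.4 for THBS1, the matrix glycoprotein that activates latent transforming growth factor beta (SD, n = 2). FN1, the scaffold to which cells attach through integrins, followed at 3918 ± 118 in siCt (SD, n = 2). Of all tested genes with a length, 97.8% lay below each of the pair. TNC stood at 878 ± 18.4 and TGFBI at 764 ± 54.1 per kilobase in siCt (SD, n = 2). Lower down came THBS3 (129 ± 29.3), SPOCK1 (83.9 ± 10.4) and THBS2 (24.7 ± 1.35), and last SPP1 (8.36 ± 0.721) and SPARC (4.13 ± 0.505), each as SD over n = 2 siCt libraries per kilobase. In siAXL the order per kilobase was the same but for a swap within the first and within the last pair. FN1 (3993 ± 189) lay above THBS1 (3636 ± 227), and SPARC (8.98 ± 3.50) above SPP1 (2.32 ± 0.317), again per kilobase with SD over n = 2. Within each group, neighbours in these orders did not overlap between libraries. The siCt order within both pairs rests on the exon lengths used: in normalized counts not divided by length, FN1 lay above THBS1 in siCt (67847 and 38865) as in siAXL (69142 and 33294), and SPARC and SPP1 were alike in siCt (19.9 and 19.4). POSTN had 0 reads in all 4 libraries, a count whose 95% exact Poisson interval reaches 3.69 reads in each library. This limit and the Poisson intervals below speak of counting error alone, because PCR copies are not separate molecules.

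**Figure D1:**
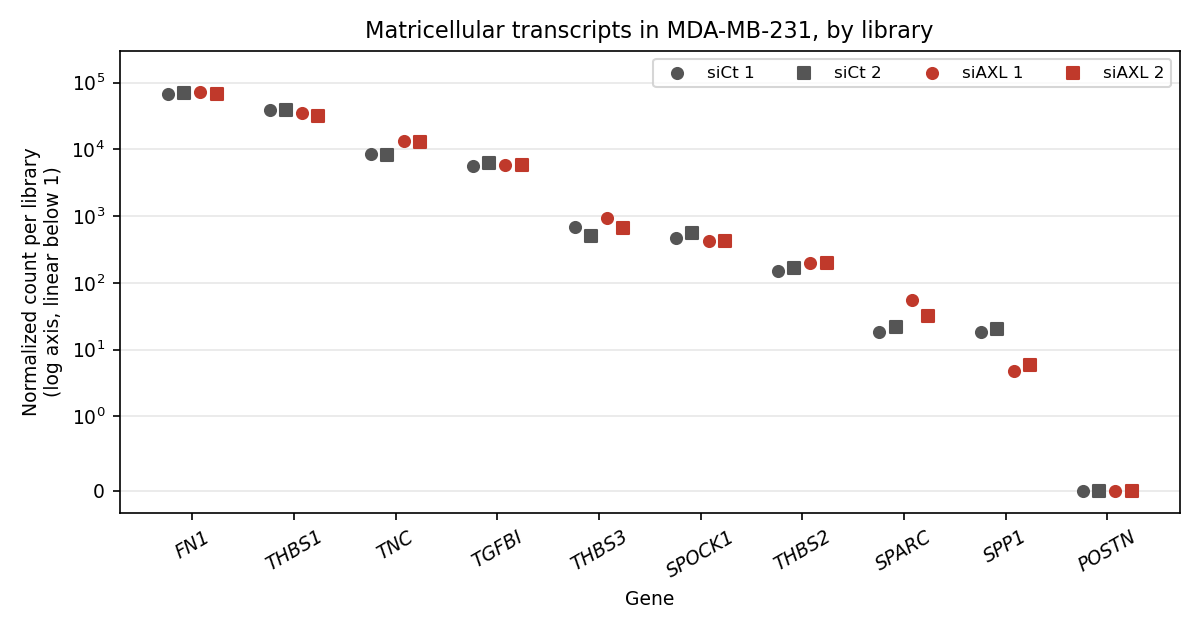
Normalized count (log axis, linear below 1) of each of the 10 genes in the 4 libraries, with siCt in grey, siAXL in red, circles for library 1 and squares for library 2. FN1 lies near the top between 66405 and 71453 in every library, TNC rises from at most 8589 in siCt to at least 12687 in siAXL, SPP1 falls, and POSTN is at 0.

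Of the 10 genes, TNC was higher and SPP1 lower in siAXL past the threshold, and the other 7 that could be tested were not called. The test was limma on log2(normalized count + 1), on which changes of scarce transcripts come out too small. P-values were adjusted by Benjamini-Hochberg over the 16064 genes that passed edgeR's filter on low counts, and a gene was called at an adjusted p under 0.05. POSTN did not pass the filter, leaving 9 genes. SPP1 passed only through its siCt libraries, where it was higher, and the limits of its call are given below. The 2 calls among the 9 (22.2%) stand beside 18.7% of all genes tested, 10.8% higher and 7.91% lower. On the recovered reads edgeR called the same 2 members, beside 19.4% of all genes (11.5% higher, 7.92% lower), and DESeq2 called TNC and THBS1, beside 20.1% (11.5% higher, 8.58% lower). The siAXL and siCt libraries did not overlap in 6 of the 9 (66.7%), 3 in each direction, beside 61.2% of all genes tested. The counts of calls and of separated groups both lay near the share over all genes. The median log2 fold change of the 9 was 0.027, beside -0.0022 over all genes tested. An exact two-sided permutation test of 2 libraries against 2 reaches 0.333 at best, and the adjusted p-values lean on variance borrowed from other genes.

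TNC encodes tenascin-C, a large hexameric glycoprotein of tumour stroma and wounds that binds fibronectin and whose EGF-like repeats bind the EGF receptor. Its normalized counts were 8589 and 8338 in libraries siCt 1 and 2, and 13535 and 12687 in libraries siAXL 1 and 2. Both siAXL libraries were well above both siCt libraries, and libraries of the same group were close together. The mean rose from 8463 ± 178 to 13111 ± 599 (SD, n = 2 in each), or 1.55-fold (log2 fold change 0.63, SE 0.0577, adjusted p = 0.00203 by limma). By p-value TNC ranked 85 among the 16064 genes. Its log2 fold change ran from 0.58 to 0.68 with each library left out in turn, and the adjusted p was 0.00283 by edgeR and 5.38e-14 by DESeq2. Its exons share 129 bases with DEC1 on the opposite strand, which had at most 5 reads in any library. The 3 genes whose centred log2 values lay nearest to those of TNC, by Euclidean distance over the 4 libraries, were TMEM65 (distance 0.0248), ZNF821 (0.030) and AC005534.8 (0.0374). AC005534.8 had a mean of 16.9 normalized counts and was itself not called (limma adjusted p = 0.199).

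SPP1 encodes osteopontin, a secreted phosphoprotein that binds αv integrins and CD44. Its transcript was rare, with 19 reads in siCt 1 (95% exact Poisson interval 11.4 to 29.7), 19 in siCt 2 (the same interval), 5 in siAXL 1 (1.62 to 11.7) and 6 in siAXL 2 (2.20 to 13.1). In normalized counts these were 18.2, 20.6, 4.86 and 5.90. Both siAXL libraries were below both siCt libraries, although the counting intervals of both siAXL libraries overlapped that of siCt. The siAXL mean was 27.7% of the siCt mean, and the log2 fold change was -1.68 (SE 0.352, adjusted p = 0.0204 by limma), with a 95% limma interval from -2.51 to -0.85. SPP1 passed the filter on low counts only through its siCt libraries. edgeR called it (adjusted p = 0.0199), and DESeq2 gave it no adjusted p. The call was lost without siCt 2 (log2 fold change -1.60, adjusted p = 0.0565), without siAXL 1 (-1.56, adjusted p = 0.0652), and when every gene with a read in any library was tested (adjusted p = 0.0604). The nearest genes by the same distance were AC006262.5 (0.113), RP13-580F15.2 (0.138) and KCP (0.206), at means of 7.84, 6.33 and 63.6 normalized counts.

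**Figure D2:**
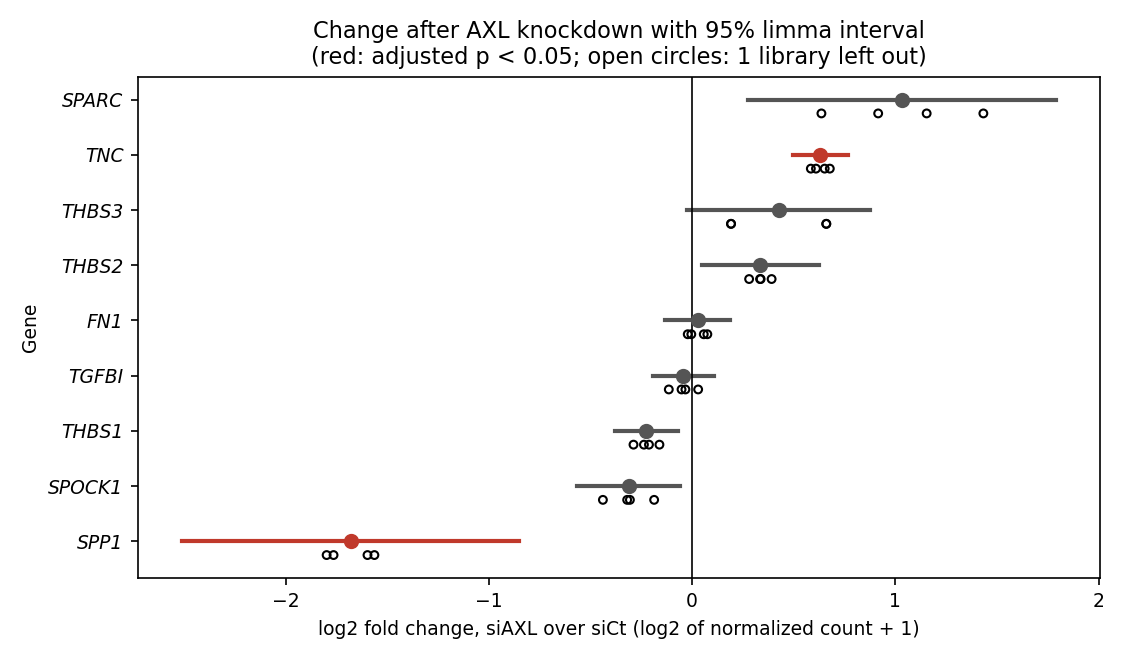
Log2 fold change of the 9 tested genes (filled points) with the 95% limma interval (lines), red where the adjusted p is under 0.05, and the same value with 1 library left out (open circles). TNC at 0.63 and SPP1 at -1.68 are called, FN1 and TGFBI straddle 0, and the circles of THBS3 and SPARC are spread wide.

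Among the thrombospondins, THBS1 stood lower and THBS2 and THBS3 higher in siAXL, and limma on the group alone called none of them. THBS1, a trimeric protein that binds CD47, CD36 and integrins, had normalized counts of 38532 and 39197 in libraries siCt 1 and 2, and of 34766 and 31823 in libraries siAXL 1 and 2. The groups did not overlap, and the siAXL mean was 85.7% of the siCt mean. Its log2 fold change was -0.22 (SE 0.065, adjusted p = 0.0536 by limma), just beyond the threshold. DESeq2 called it (adjusted p = 0.0226). So did limma with scaling by the library sum (adjusted p = 0.0342) or the upper quartile (adjusted p = 0.0397). edgeR did not (adjusted p = 0.0582), nor did limma when every gene with a read was tested (adjusted p = 0.124). With 1 library left out the log2 fold change lay between -0.29 and -0.16. Opposite-strand FSIP1, which shares 448 exon bases with THBS1, had at most 31 reads in a library.

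THBS2, a close homologue that also forms trimers, was scarce. It had 152 and 165 normalized counts in siCt 1 and 2 and 200.1 and 200.5 in siAXL 1 and 2. The groups did not overlap, with a log2 fold change of 0.34 (SE 0.122, adjusted p = 0.0984 by limma). THBS3, a member of the pentameric subgroup, had 691 and 499 in siCt and 929 and 671 in siAXL. The groups overlapped, since library 2 was lower than library 1 by a like ratio in siCt (0.722) and in siAXL (0.722). The same-numbered libraries differed 1.34-fold in each case. The log2 fold change of THBS3 was 0.43 (SE 0.191, adjusted p = 0.168 by limma). With 1 library left out it was 0.66 without siCt 1 and without siAXL 2, with a lowest value of 0.19 without siAXL 1. MTX1, on the opposite strand, shares 146 exon bases with THBS3 and had 675 to 765 reads, and AC234582.1 shares 1027 and had at most 27, and without a stated strand setting their shared reads cannot be told apart.

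SPARC and SPOCK1, both of the SPARC family of calcium-binding glycoproteins, stood on opposite sides of 0. SPARC, which binds collagen and is abundant in stroma, had only 19 and 20 reads in siCt 1 and 2, and 57 and 32 in siAXL 1 and 2. Both siAXL libraries were above both siCt libraries, but they differed from each other, at 55.4 and 31.4 normalized counts. The log2 fold change was 1.03 (SE 0.321, adjusted p = 0.0655 by limma), with a 95% limma interval from 0.28 to 1.79. With 1 library left out it lay between 0.64 and 1.43. The value was 0.92 without siCt 1, 1.15 without siCt 2, 0.64 without siAXL 1 and 1.43 without siAXL 2. edgeR did not call SPARC (adjusted p = 0.071), and DESeq2 gave no adjusted p.

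SPOCK1, a secreted proteoglycan also named testican-1, had 477 and 568 normalized counts in siCt 1 and 2 and 417 and 421 in siAXL 1 and 2. The groups did not overlap, and the siAXL libraries were nearly equal. The log2 fold change was -0.31 (SE 0.108, adjusted p = 0.0867 by limma), and it was -0.44 without siCt 1 and -0.19 without siCt 2. An earlier analysis of these data had picked out the 7-base word CACATCA in 3′ UTRs. Among 13017 tested genes with a 3′ UTR in GENCODE 29, 1308 held the word. Of the 10 genes here, SPOCK1 alone held it, in 1 copy, printed below with the word in capitals on the strand of the gene (GRCh38, a later build than the GRCh37 of the read counts), and nothing was tested on it. The word was absent from the 3′ UTR of TNC and of the other 8.
SPOCK1 3′ UTR (chr5:136978104-136978132, minus strand): ttagtttttttCACATCAttatatctggc

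FN1 and TGFBI differed little between the groups. FN1 had 66405 and 69290 normalized counts in siCt 1 and 2 and 71453 and 66831 in siAXL 1 and 2. The groups overlapped, and the log2 fold change was 0.027 (SE 0.0669, adjusted p = 0.821 by limma), with a 95% limma interval from -0.13 to 0.18. Its sign turned with scaling by the library sum (-0.0024), without siCt 1 (-0.0039) and without siAXL 1 (-0.021). TGFBI, which binds collagen and integrins through its fasciclin-like domains, had 5669 and 6266 in siCt and 5825 and 5749 in siAXL. Both siAXL values lay between the siCt values. Its log2 fold change was -0.042 (SE 0.0642, adjusted p = 0.692 by limma), with a 95% limma interval from -0.19 to 0.11, and it turned to 0.030 without siCt 2. A change of either gene as large as that of TNC lay outside these intervals.

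Ratios taken within a library do not depend on how libraries are scaled to each other. The reads of TNC per read of FN1 were 0.129 in siCt 1 and 0.120 in siCt 2, and 0.189 in siAXL 1 and 0.190 in siAXL 2. For THBS1 per FN1 the ratio was 0.580 and 0.566 in siCt, and 0.487 and 0.476 in siAXL. TNC per THBS1 was 0.223 and 0.213 in siCt, and 0.389 and 0.399 in siAXL. In each of the 3 ratios the groups did not overlap, and the spread within a group was small beside the step between groups. The genes were chosen with earlier results of these data known, and the third ratio follows from the first 2. Single genes did not overlap in 61.2% of all tested, so this separation is no independent support for a change. The ratios restate the values of the single genes, were not tested, and do not tell which of the 3 transcripts was steady.

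**Figure D3:**
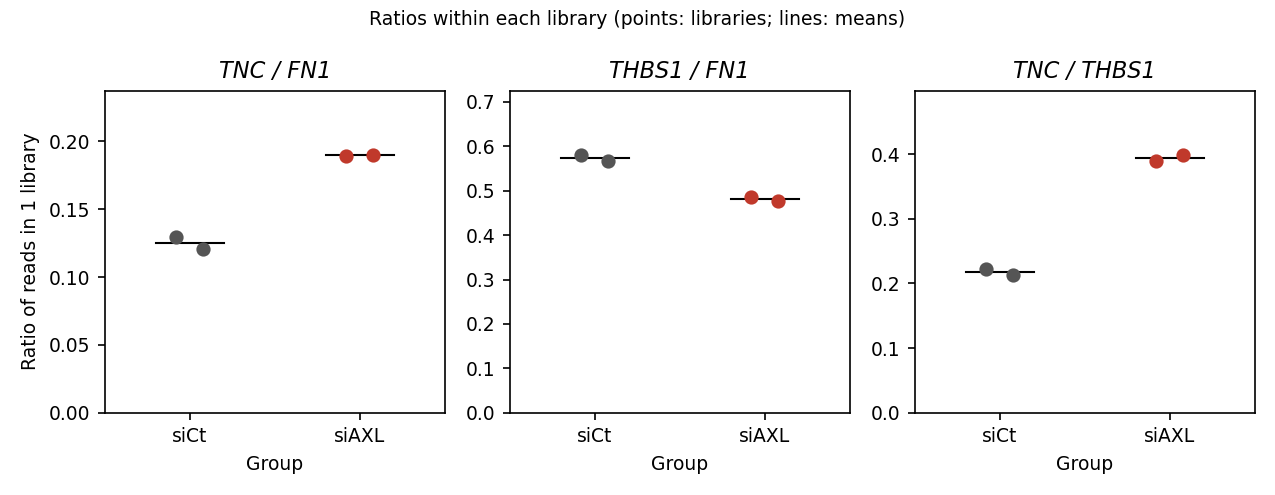
Ratio of the reads of 2 genes within each library for TNC over FN1, THBS1 over FN1 and TNC over THBS1, with siCt in grey, siAXL in red, points for libraries and lines for means of 2. TNC over THBS1 moves from at most 0.223 in siCt to at least 0.389 in siAXL.

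Further matricellular genes went both ways. Of 26 others, 13 passed the filter, with 3 called higher and 1 lower, beside 10.8% and 7.91% of all genes tested, and a median log2 fold change of 0.16. FSTL1, a secreted relative of SPARC, had 6399 and 6189 normalized counts in siCt and 9603 and 10284 in siAXL (log2 fold change 0.66, limma adjusted p = 0.00184). ECM1 rose by 0.41 (limma adjusted p = 0.00696) and the spondin SPON2 by 0.89 (limma adjusted p = 0.0161). The related spondin SPON1 was lower (-1.33, limma adjusted p = 0.049) with 13.4 and 14.1 normalized counts in siCt and 4.86 and 4.91 in siAXL, and like SPP1 it passed the filter only through its siCt libraries. Its call was lost without siCt 2, without siAXL 1, without siAXL 2, with a pseudocount of 8 and when every gene with a read was tested. Of the CCN genes, named here after their values were seen, CYR61 had 24385 and 29414 in siCt and 20577 and 22781 in siAXL, and CTGF 4009 and 3624 against 4279 and 4346. Neither was called (limma adjusted p = 0.0697 for CYR61 and 0.103 for CTGF).

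Among cell surface receptors of these proteins, EGFR, ITGB5 and VLDLR were higher and SDC4 lower. Of 27 receptor genes 22 were tested, 11 were called higher and 1 lower, beside 10.8% and 7.91% of all genes, and the median log2 fold change was 0.30. This list, like the others, was drawn up with earlier results of these data known. The shares over all genes were not matched to the lists by level, and no set test was run. EGFR, which TNC can bind, rose from 7355 and 7136 normalized counts in siCt to 12921 and 15003 in siAXL (log2 fold change 0.94, limma adjusted p = 0.00166). ITGB5, the partner of αv in a receptor for RGD-bearing ligands such as osteopontin, rose by 0.49 (limma adjusted p = 0.00273). VLDLR, a lipoprotein receptor that also binds thrombospondins, rose by 0.55 (limma adjusted p = 0.00329). SDC4, a heparan sulfate co-receptor for fibronectin, was lower, with 12185 and 13349 in siCt and 10648 and 10751 in siAXL (-0.25, limma adjusted p = 0.032). The call of SDC4 was lost when every gene with a read was tested. The fibronectin receptor subunit ITGA5 (0.47, limma adjusted p = 0.00573) and the thrombospondin receptor CD47 (0.40, limma adjusted p = 0.00435) were also called higher and are named after their values were seen.

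The next lists held matrix proteins with the enzymes and chaperones that assemble them, and proteases with their inhibitors. Of 23 genes of fibronectin and matrix assembly, 21 were tested, 11 were called higher and 0 lower by limma, with 1 lower at an unadjusted p under 0.05 and 0 lower by edgeR and by DESeq2. Over all genes tested limma called 10.8% higher and 7.91% lower. Their median log2 fold change was 0.28. The collagen cross-linking enzyme LOX rose by 0.77 (limma adjusted p = 0.00136), the peroxidase PXDN by 0.67 (limma adjusted p = 0.00184) and the collagen chaperone SERPINH1 by 0.61 (limma adjusted p = 0.00218). Of 25 proteases and their inhibitors, 19 were tested, 12 were called higher and 1 lower, beside the same 10.8% and 7.91%, with a median of 0.34. MMP1, the interstitial collagenase, had 5790 and 6197 normalized counts in siCt and 11326 and 15096 in siAXL (1.13, limma adjusted p = 0.0030). ADAM8 rose by 0.65 (limma adjusted p = 0.00329) and PLAT, the tissue plasminogen activator, by 0.45 (limma adjusted p = 0.0039). ADAMTS9 was lower (-0.39, limma adjusted p = 0.0221), a call that was lost when every gene with a read was tested.

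All 18 genes of the transforming growth factor beta pathway were tested, 6 were called higher and 2 lower, beside 10.8% and 7.91% of all genes, and the median was 0.066. TGFBR2 (0.94, limma adjusted p = 0.00113), TGFBR1 (0.54, limma adjusted p = 0.00223) and the latent complex protein LTBP1 (0.38, limma adjusted p = 0.00979) rose. The ligand TGFB2 (-0.32, limma adjusted p = 0.0226) and the SMAD repressor SKIL (-0.27, limma adjusted p = 0.042) were lower. Both of these calls were lost when every gene with a read was tested. The other ligands, TGFB1 (0.53, limma adjusted p = 0.0112) and TGFB3 (0.70, limma adjusted p = 0.036), were called higher and are named after their values were seen. TGFBI, which the pathway induces, was not called, as given above.

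**Figure D4:**
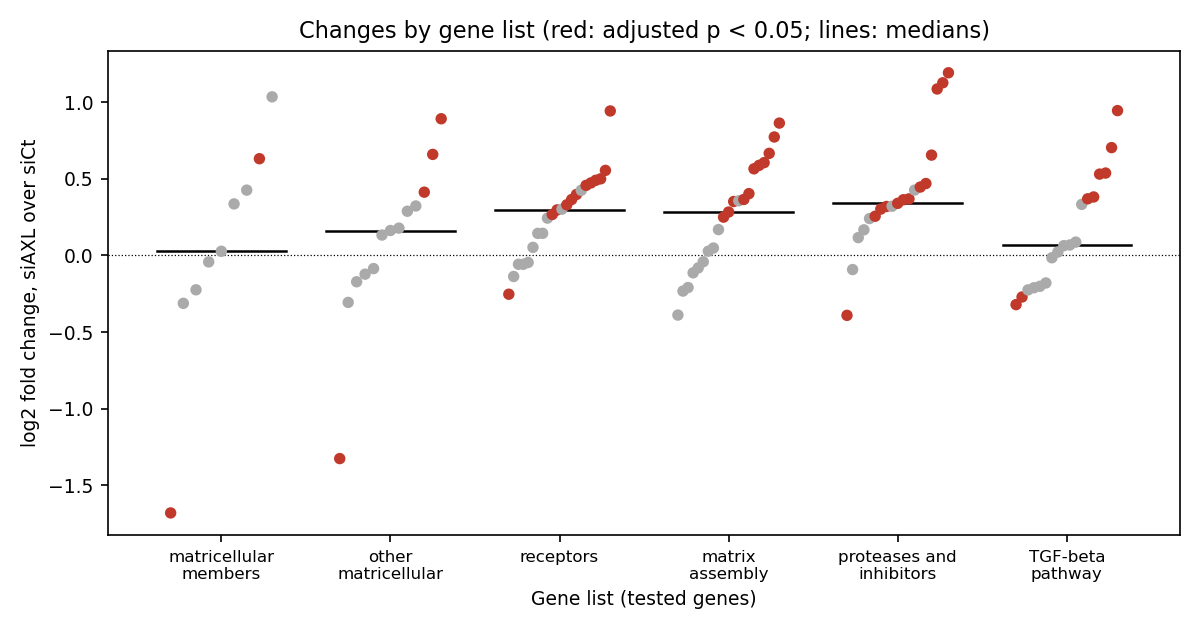
Log2 fold change of each tested gene in the 6 gene lists, sorted within a list, red where the adjusted p is under 0.05, with a line at the median of the list. Medians are 0.027 for the 9 matricellular genes, 0.16 for the others of that kind, 0.30 for receptors, 0.28 for matrix assembly, 0.34 for proteases and inhibitors and 0.066 for the pathway of transforming growth factor beta.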

How the data were processed

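RNA of 4 libraries (2 siCt, 2 siAXL) was sequenced on an Illumina HiSeq. Per the labels, the submitters' processing notes name CASAVA 1.8, TopHat2 2.0.10, HTSeq 0.5.3, DESeq2 1.4.5 and the build GRCh37. The annotation and the strand setting are not given in the sources used here. The authors deposited 1 table with a signal of normalized counts, reads divided by a DESeq2 size factor per library. The deposited table also holds the authors' own comparison (mean, log2 fold change and its error, a test score, p-values), of which nothing was used. In each library 100% of values were whole multiples of 1 read (within 0.001 of a read), so reads were recovered, 39574387 to 44585773 per library. With 2 libraries a group, the spread of a single gene is known poorly.

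Genes were tested with limma 3.58.1 (trend, R 4.3.3) on log2(normalized count + 1), 16064 genes after edgeR's filterByExpr on the recovered reads and 47613 not tested. Alternatives were edgeR 4.0.16 and DESeq2 1.42.0 on recovered reads (edgeR called 3122 genes), and changes of scaling, pseudocount (0.5 and 8), filter, replicate block, left-out libraries and threshold (0.01). The method was tested on simulated data. Where a symbol had several rows, the one with the highest mean was kept. Replicates differed beyond sampling noise (chi-square per gene 21.6 in siCt and 19.6 in siAXL). Lengths, overlaps and 3′ UTRs came from GENCODE 29 (GRCh38), which held 82.5% of the gene identifiers. The principal protein-coding transcript with the longest coding part gave the 3′ UTR. Protein sequences were not used here.

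The members, the lists and the named genes were chosen with earlier results of these data known. Named are the 10 genes and AXL, in each list the 3 called genes with the smallest p per direction, overlapping genes with reads and the 3 nearest genes of TNC and SPP1. Markers of cell types were named after their values were seen.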

Additional observations from a re-analysis of the deposited data

How the results depend on the processing

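Direction and call of TNC and AXL held under every alternative run. With the replicate number as a block, the log2 fold changes did not move, but calls were added for THBS1 (-0.22), THBS2 (0.34), THBS3 (0.43), SPARC (1.03) and SPOCK1 (-0.31), giving 4 higher and 3 lower of the 9 and 7310 genes in all, against 3006 without it. Deviations of same-numbered libraries correlated at r = 0.271 over genes, and 5 of 9 members had the same sign of difference in both groups, but no label says that a number marks a shared day, and the block left 1 residual degree of freedom beside 41.4 borrowed across genes. THBS1 was called at -0.25 with scaling by the library sum, -0.24 with the upper quartile and -0.22 with DESeq2, so that 2 members were lower under both of those scalings. FN1 turned to -0.0024 with the library sum. That scaling also moved the share of higher genes among all calls from 57.7% to 46.8%, and the upper quartile moved it to 49.9%. Testing every gene with a read left SPP1 at -1.68 without its call and 0 members lower, as did an adjusted p under 0.01. In the block fit, 7 other matricellular genes were higher and 2 lower, 2 receptors lower, 1 matrix assembly gene lower and 6 pathway genes lower. Of other matricellular genes, 2 were lower with the library sum and 0 with a pseudocount of 8, with every gene with a read, or at 0.01. Both every gene with a read and the 0.01 threshold left 7 receptors, 5 matrix assembly genes, 7 proteases and 3 pathway genes higher and 0 lower in each of these lists. DESeq2 left 1 pathway gene lower, beside 8.58% of all genes it tested. For the changes of scaling, pseudocount, filter and threshold, the share of all genes called was not worked out. Counts under those settings are therefore not compared with all genes.

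With 1 library left out, the log2 fold change ran from -2.07 to -1.79 for AXL, 0.58 to 0.68 for TNC, -0.29 to -0.16 for THBS1, 0.28 to 0.39 for THBS2, 0.19 to 0.66 for THBS3, 0.64 to 1.43 for SPARC, -0.44 to -0.19 for SPOCK1, -0.021 to 0.075 for FN1, -1.80 to -1.56 for SPP1 and -0.11 to 0.030 for TGFBI, FN1 being at -0.0039 without siCt 1. The lone library of a group is then assumed to vary like the others. Members called ran from 1 to 3 higher and 0 to 2 lower. Called counts ran from 2 to 4 higher and 0 to 1 lower in other matricellular genes, 7 to 12 and 0 to 1 in receptors, 8 to 11 and 0 to 1 in matrix assembly, 8 to 13 and 0 to 1 in proteases, and 5 to 7 and 0 to 4 in the pathway. The cause of these changes was not tested, except that fewer libraries or more genes enter some fits by construction. The values of SPP1 and SPARC rest on few reads, and POSTN had 0 reads in every library. The part of sequencing depth in this was not tested.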
